A study of Mus musculus with 4 samples.

Results

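Open chromatin inside gene bodies was examined in lung tumours of 4 mice: the 8793 autosomal regions in which a peak was called in every tumour, and which lay inside a protein-coding gene and away from its ends. They were chosen from 60713 merged autosomal regions, the intervals that remain when overlapping peaks of the 4 libraries are joined. A region was kept if it overlapped at least 1 base pair (bp) of a peak of each library and of a protein-coding gene, and did not touch the 2 kb on either side of any protein-coding gene end. These are called intragenic shared regions. Of all 26402 regions called in the 4 libraries, 10763 touched a 2 kb window at a gene end and 6846 lay outside protein-coding genes, and both sets served for comparison.

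All 4 tumours came from C57B6J mice aged 55 weeks heterozygous for KrasLA1 (KrasLA1/+), an allele that turns oncogenic in scattered cells when it recombines spontaneously. The KrasLA1 group (genotype KrasLA1/+) held 2 libraries, and the Dicer1S2D group (genotype KrasLA1/+;Dicer1S2D/+) held 2 libraries. Dicer1S2D is a heterozygous phospho-mimic allele of the microRNA-processing enzyme DICER1, which the labels give as a genotype of the mouse and not of the tumour cells alone. In each group replicate 1 was a female and replicate 2 a male, so replicate number and sex cannot be told apart. ATAC-seq, in which a transposase inserts adapters into open DNA, was run on 40-50 mg of snap-frozen tumour, a mixture of tumour cells and the blood vessels, stroma and immune cells around them. In such a mixture fewer cells of a type and less open chromatin per cell cannot be told apart. The deposited values are the positions of peaks only, so the number of reads is unknown, and a region's value in a library is the number of base pairs under that library's peaks, here called its width.

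Accessible sites within genes are mostly of 2 kinds. Intragenic enhancers bind transcription factors and can act on the gene that holds them or on a neighbour, and internal promoters start shorter transcripts of the same gene. Promoters of broadly expressed genes are often rich in CpG dinucleotides and in GC boxes, the binding sequence of SP1-family factors, whereas many enhancers are not.

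Internal transcription starts were found in a minority of the intragenic shared regions. RefSeq start windows, each running from 250 bases before to 50 bases after an annotated start, were matched by coordinates on GRCm38.p6, the assembly behind mm10. Of the 8483 intragenic shared regions on chromosomes for which windows were given, 765 (9.02%) overlapped a window of the gene that held them, 119 (1.40%) overlapped only a window of another gene, and 7599 overlapped none. Regions inside gene bodies that were called in 1, 2 or 3 libraries overlapped a window of their own gene in 1.02%, 1.71% and 1.94% of cases. Those regions were also narrower, which leaves less room for a window, and the part of width in this difference was not tested.

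The windows below show the range of the internal starts: 4 lay in wide intragenic shared regions, 1 lay in such a region of Gse1, and 2 had no peak in any library. They are printed 5′ to 3′ on the strand of the gene, in lower case, with each GC box (GGGCGG on either strand) in capitals. Cdkn1a encodes the cell-cycle inhibitor p21, Dab2ip a GTPase-activating protein for RAS, Runx1 and Elf5 transcription factors, Gse1 a chromatin-associated protein and Nfia a transcription factor of the nuclear factor I family.
Cdkn1a, chr17:29093519-29093818, plus strand: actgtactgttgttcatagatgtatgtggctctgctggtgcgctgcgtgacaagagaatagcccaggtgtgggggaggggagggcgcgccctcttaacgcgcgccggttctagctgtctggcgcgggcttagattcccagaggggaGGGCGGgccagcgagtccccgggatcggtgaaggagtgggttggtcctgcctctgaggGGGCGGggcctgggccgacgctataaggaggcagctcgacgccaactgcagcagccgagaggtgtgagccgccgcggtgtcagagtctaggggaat
Dab2ip, chr2:35582590-35582889, plus strand: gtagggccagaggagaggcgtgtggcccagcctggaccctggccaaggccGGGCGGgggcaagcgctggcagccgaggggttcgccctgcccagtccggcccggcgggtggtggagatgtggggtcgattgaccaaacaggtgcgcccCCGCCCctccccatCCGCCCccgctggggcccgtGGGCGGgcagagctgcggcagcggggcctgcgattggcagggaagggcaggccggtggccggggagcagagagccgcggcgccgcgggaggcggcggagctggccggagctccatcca
Runx1, chr16:92697280-92697579, minus strand: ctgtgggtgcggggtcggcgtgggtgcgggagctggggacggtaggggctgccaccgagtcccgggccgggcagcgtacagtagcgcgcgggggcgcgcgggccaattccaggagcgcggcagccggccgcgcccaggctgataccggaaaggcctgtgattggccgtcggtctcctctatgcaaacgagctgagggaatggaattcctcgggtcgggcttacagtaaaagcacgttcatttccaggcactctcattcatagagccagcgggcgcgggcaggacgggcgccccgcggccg
Elf5, chr2:103423818-103424117, plus strand: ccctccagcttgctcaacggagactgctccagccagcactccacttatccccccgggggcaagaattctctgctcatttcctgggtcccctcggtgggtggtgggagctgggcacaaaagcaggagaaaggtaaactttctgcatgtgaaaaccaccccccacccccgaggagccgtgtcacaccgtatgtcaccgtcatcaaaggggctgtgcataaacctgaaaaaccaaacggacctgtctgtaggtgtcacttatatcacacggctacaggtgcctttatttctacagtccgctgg
Gse1 with peaks, chr8:120537159-120537458, plus strand: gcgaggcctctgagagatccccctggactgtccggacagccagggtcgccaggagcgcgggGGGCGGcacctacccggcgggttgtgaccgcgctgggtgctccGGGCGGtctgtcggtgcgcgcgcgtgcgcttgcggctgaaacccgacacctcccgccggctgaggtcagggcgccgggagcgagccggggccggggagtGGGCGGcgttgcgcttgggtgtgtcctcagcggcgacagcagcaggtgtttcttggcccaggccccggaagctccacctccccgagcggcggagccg
Gse1 without a peak, chr8:120488616-120488915, plus strand: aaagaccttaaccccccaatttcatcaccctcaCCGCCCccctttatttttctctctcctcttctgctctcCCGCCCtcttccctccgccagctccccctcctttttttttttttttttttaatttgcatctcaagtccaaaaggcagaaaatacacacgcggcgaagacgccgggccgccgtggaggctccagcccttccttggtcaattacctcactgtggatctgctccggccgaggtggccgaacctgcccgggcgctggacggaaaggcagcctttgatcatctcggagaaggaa
Nfia without a peak, chr4:97581693-97581992, plus strand: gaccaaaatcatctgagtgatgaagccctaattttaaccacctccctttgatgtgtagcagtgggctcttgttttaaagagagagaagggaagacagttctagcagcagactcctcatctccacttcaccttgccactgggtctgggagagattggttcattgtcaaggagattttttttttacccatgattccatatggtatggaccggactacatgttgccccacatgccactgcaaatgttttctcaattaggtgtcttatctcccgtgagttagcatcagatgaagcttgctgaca

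The Dab2ip window held 29 CpG and 4 GC boxes at 76.7% GC, and the Cdkn1a window held 23 CpG and 2 GC boxes at 64.7% GC. The Runx1 window had 35 CpG and 69% GC but no GC box, and the Elf5 window had 10 CpG, 55.3% GC and no GC box. In Gse1 the start with peaks in 4 libraries had 37 CpG and 3 GC boxes at 74.7% GC, against 17 CpG and 2 GC boxes at 55% GC at the printed start without a peak. Another Gse1 start without a peak, chr8:120535607-120535906, had 23 CpG and 1 GC box at 64.3% GC. The Nfia start without a peak had 2 CpG, 44.7% GC and no GC box. Windows open in all 4 tumours therefore included ones without a GC box, and windows without a peak included ones with GC boxes.

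Over all internal starts the open windows were richer in GC than the closed ones. RefSeq placed 2824 starts inside the body of their own gene and beyond 2 kb from any gene end: 884 (31.3%) lay in an intragenic shared region, 1649 (58.4%) had no peak in any library, and 291 lay in a region called in fewer libraries. The 888 own-gene windows in intragenic shared regions had a median GC content of 61% and a median of 18 CpG, and 59.0% of them held a GC box. The 1649 closed internal windows had medians of 50% GC and 4 CpG, and 20.1% of them held a GC box. The 9928 windows in shared regions at gene ends had medians of 62.7% GC and 23 CpG, with a GC box in 70.3%. All 31396 windows given, on the autosomes without chromosome 18, had medians of 53% GC and 7 CpG, with a GC box in 36.0%. Internal open starts thus lay between gene-end starts and all starts on each of the 3 measures.

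Other motifs were counted in the same windows on both strands. The ETS-type motif CCGGAAG occurred in 12.6% of the own-gene windows in intragenic shared regions, in 20.7% at gene ends, in 1.70% of the closed internal windows and in 9.0% of all windows. The AP-1 motif TGANTCA occurred in 6.87%, 4.31%, 8.73% and 7.84% of the same sets. It was rarer in the open internal windows than in the closed ones, as were the TEAD, forkhead and NKX2-1 motifs. The TEAD motif GGAATG occurred in 12.6%, 11.1%, 17.4% and 14.6%, and the forkhead motif TGTTTAC in 2.82%, 2.31%, 3.34% and 3.71%. The NKX2-1 motif CACTTGA occurred in 2.70%, 1.67%, 4.06% and 3.03%, and CCCTC, a short part of the CTCF motif, in 77.8%, 76.3%, 66.5% and 66.3%. A match is a description of these letters and not a bound site. CCGGAAG and GGGCGG are themselves rich in G and C, and the part of base composition in these shares was not tested.

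Intragenic shared regions with an internal start were wider than those without one. The 765 regions with a start of their own gene had median widths of 766 and 876 bp in KrasLA1 replicates 1 and 2, and of 748 and 728 bp in Dicer1S2D replicates 1 and 2. The 7599 regions without a start had medians of 460, 592, 504 and 435 bp in the same order. The quartile ranges of the 2 sets overlapped in each library. The difference in medians was 281.75 ± 26.7 bp (SD, n = 4 libraries), higher in 4 of 4 libraries (exact paired permutation test, two-sided, p = 0.13, the smallest value that 4 pairs allow). Shared regions at gene ends had medians of 806, 880, 769 and 740 bp. They exceeded the intragenic shared regions without a start by 301 ± 34.2 bp (SD, n = 4), from 265 to 346 bp by library. Wider regions have more room for a window, and the part of this in the difference was not tested.

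**Figure D1:**
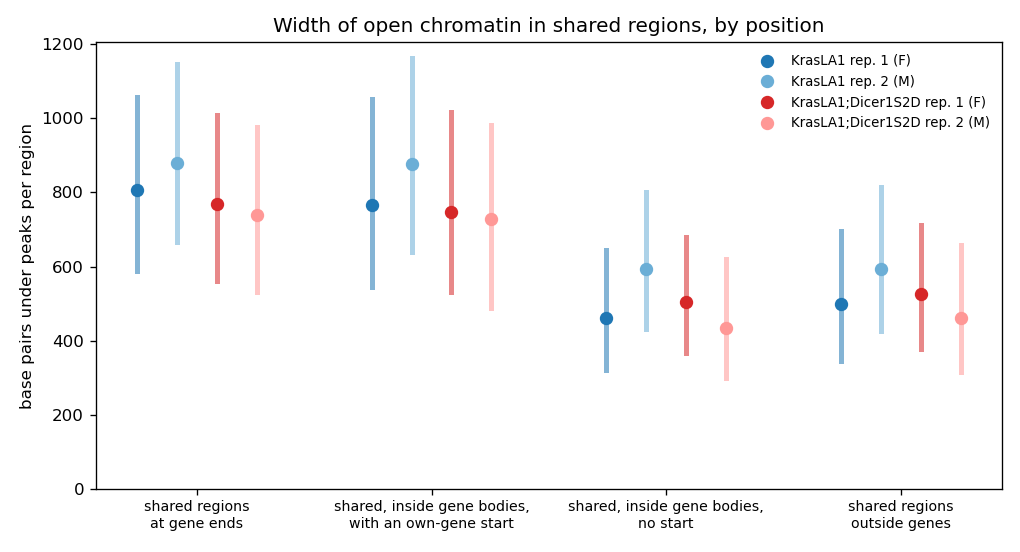
Width of shared regions by position. Points are the median base pairs under peaks per region in each of the 4 libraries (F female, M male), and vertical bars run from the 25th to the 75th percentile over regions. Regions with a start of their own gene have medians of 728 to 876 bp, near those at gene ends (740 to 880 bp), while those without a start (435 to 592 bp) lie near those outside genes (461 to 592.5 bp).

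Some wide intragenic shared regions with an internal start were nearly equal in the 4 tumours, and others were not. The Cdkn1a region, chr17:29093584-29095712, covered 2065, 2097, 2106 and 2098 bp in KrasLA1 replicates 1 and 2 and Dicer1S2D replicates 1 and 2. The Runx1 region, chr16:92696642-92698885, covered 1845, 2148, 1843 and 2244 bp, with both males above both females. Elf5, an epithelial ETS-family factor, had 963, 2080, 2075 and 1781 bp in its region at chr2:103423824-103426344, where the female KrasLA1 tumour stood below the others. The Dab2ip region, chr2:35581443-35583720, covered 1508, 2179, 1929 and 1838 bp, with both KrasLA1 tumours outside the range of the Dicer1S2D tumours, 1 below and 1 above. Txnrd1, which encodes cytosolic thioredoxin reductase, a target of the oxidative-stress factor NRF2, had a region of 2542 bp with 2 of its starts and widths of 1526, 2133, 1882 and 1537 bp.

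The intragenic shared regions were a minority of all regions called in gene bodies. Of 25229 regions inside gene bodies, 8133 (32.2%) were called in 1 library, 4790 (19.0%) in 2, 3513 (13.9%) in 3 and 8793 (34.9%, 95% Wilson interval 34.3% to 35.4%, counting error only) in 4. At gene ends 70.7% of regions were called in 4 libraries, and outside genes 33.8%. The merged width rose with the number of libraries in the body, with medians of 251, 371, 461 and 690 bp for 1 to 4 libraries, a sequence that joining more peaks into 1 interval also gives. Among the 3513 regions called in 3 libraries the library without a peak was Dicer1S2D replicate 2 in 1553 (44.2%), KrasLA1 replicate 1 in 1207 (34.4%), KrasLA1 replicate 2 in 450 (12.8%) and Dicer1S2D replicate 1 in 303 (8.63%). The 2 libraries most often without a peak were those with the fewest peaks in all, 34767 and 41621, against 44654 and 50282 in KrasLA1 replicate 2 and Dicer1S2D replicate 1.

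A common core was present in nearly every intragenic shared region. The bases under a peak of all 4 libraries spanned a median of 349 bp (quartiles 232 and 525 bp), or 55.6% of the merged width, against 68.4% at gene ends and 56.5% outside genes. In 5296 regions (60.2%) the core was at least 50% of the merged width, and in 65 (0.739%) no base was under a peak of all 4. Merged width ran from 201 to 3129 bp with quartiles of 524, 690 and 917 bp. Together the regions covered 6.69 Mb, or 0.680% of 983.5 Mb of autosomal gene body beyond 2 kb from any gene end, a density of 8.94 per Mb that ranged from 6.64 on chromosome 1 to 10.6 on chromosome 7. A lncRNA gene overlapped 667 of them (7.59%).

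The widest and narrowest regions show what the rule gathers. The widest, 3129 bp at chr11:69408608-69411736 in Kdm6b, which encodes an H3K27 demethylase, covered 2260, 3129, 1221 and 1933 bp in KrasLA1 replicates 1 and 2 and Dicer1S2D replicates 1 and 2. The next were in Cabin1, a calcineurin inhibitor (3093 bp), Entpd1, the ectonucleotidase CD39 (2910 bp), Cpeb2, an mRNA-binding translation regulator (2783 bp), and Bcl3, an NF-kappaB cofactor (2702 bp). In each of these 5 the male KrasLA1 tumour was the widest of the 4, and it held 1 peak where at least 1 other library held 2 or more. The narrowest were in Ppp1r9a (201 bp), Cntnap5b (203 bp), Ncoa1 (210 bp), Nek6 (213 bp) and Met (214 bp). The Cntnap5b region, chr1:100180157-100180359, covered 194, 201, 203 and 200 bp, a spread of a few bases among the 4 mice. Just inside the rule lay a region in Tprkb at 2002 bp from a gene end and 1 in Rassf4 at 2009 bp, and just outside it 1 at Per2 at 2000 bp and 1 at 1810010H24Rik at 1999 bp.

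Most intragenic shared regions lay well beyond the 2 kb from gene ends that the rule requires, and neighbours in the same gene were mostly widely spaced. The distance to the nearest end of any protein-coding gene had quartiles of 8665, 20334 and 47015 bp, and 2074 regions (23.6%) lay over 50 kb from any such end. The gap to the next such region in the same gene had a median of 14151 bp over 4566 neighbours, and 319 gaps (6.99%) were under 2 kb.

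Regions called in 4 libraries were set a little more towards the start of genes than regions called in 1. In genes over 20 kb whose strand was given, 54.8% of 6501 intragenic shared regions (Wilson 53.6% to 56.0%) lay in the first 50% of the gene body, against 51.4% of 5955 regions called in 1 library (50.1% to 52.6%). Regions within 10 kb of the start made up 12.9% and 10.01%. With the gene body cut into 10 equal bins, the share of the intragenic shared regions went from 10.8% in the first bin to 8.23% in the last. These intervals cover counting error, regions of 1 gene are not independent, and the number of libraries is part of the rule, so no test is given. Regions in the first bin were wider than those in the other bins, with medians of 505 against 478, 638 against 607, 542 against 522 and 492 against 445 bp by library in the order above. The difference of 31.25 ± 11.4 bp (SD, n = 4) had the same sign in 4 of 4 libraries (exact paired permutation test, two-sided, p = 0.13, the smallest possible).

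**Figure D2:**
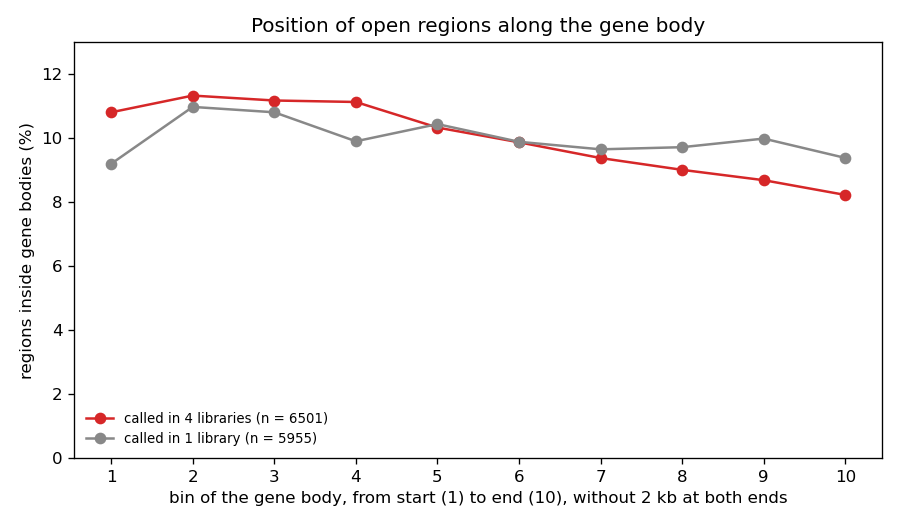
Position of regions along the gene body, in 10 equal bins from the annotated start to the end, in genes over 20 kb. Lines give the percent of regions inside gene bodies called in 4 libraries (red) or in 1 library (grey). The red line is highest in the second bin, at 11.3%, and falls to 8.23% in the last, while the grey line stays between 9.20% and 10.98%.

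Against shared regions outside genes, the intragenic shared regions did not differ in width beyond the spread between libraries. Median widths were 482, 614, 522 and 455 bp inside genes and 498, 592.5, 525 and 461 bp outside them in KrasLA1 replicates 1 and 2 and Dicer1S2D replicates 1 and 2. The difference was 0.875 ± 15.9 bp (SD, n = 4, from -21.5 to 16 bp; exact paired permutation test, two-sided, p = 0.875) and the male KrasLA1 tumour was the only library with the wider regions inside genes. The difference was 4.67 bp without KrasLA1 replicate 2, -1.67 bp without KrasLA1 replicate 1 and -0.333 bp without Dicer1S2D replicate 1. Gene ends exceeded the intragenic shared regions by 280.5 ± 32.9 bp (from 247 to 324 bp, 4 of 4 libraries, p = 0.13 by the same exact test, the smallest possible).

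Shared open regions were unevenly spread over genes. Of 20661 autosomal protein-coding genes, 16855 were longer than both end windows together, and 4286 of those (25.4%) held an intragenic shared region: 2448 held 1, 1456 held 2 to 4, 329 held 5 to 9 and 53 held 10 or more. The 382 genes with 5 or more were 1.85% of all genes and held 2704 of the regions (30.8%). The share of genes with such a region rose with length from 7.33% at 4 to 20 kb to 27.2%, 44.4% and 59.4% at 20 to 50, 50 to 100 and 100 to 200 kb, and was 58.3% and 57.2% at 200 to 500 kb and over 500 kb. Per 100 kb of gene the density was 0.728, 1.17, 1.17, 1.21, 0.754 and 0.328 over these length classes, so the longest genes held the fewest per base. Over the 16855 genes longer than both end windows, the number per gene and the length had a Spearman rank correlation of 0.458. It is a description, since genes are not replicates and length bounds the count.

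**Figure D3:**
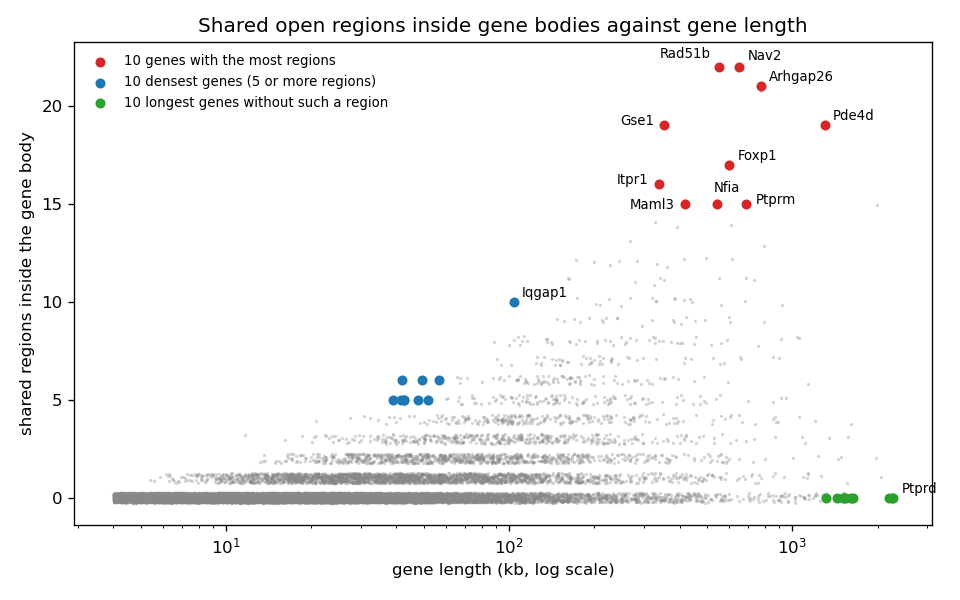
Intragenic shared regions per gene (y axis, with a small vertical jitter) against gene length in kb (x axis, log scale) for autosomal protein-coding genes longer than both end windows. Red points are the 10 genes with the most regions, from 15 in Nfia, Maml3 and Ptprm to 22 in Nav2 and Rad51b. Blue points are the 10 densest genes and green points are the 10 longest genes without such a region.

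Nav2, which encodes a cytoskeleton-associated helicase-like protein, and Rad51b, a gene of homologous recombination, held 22 intragenic shared regions each, of 52 and 47 regions in their bodies. Arhgap26, a GTPase-activating protein for RHOA, held 21 of 45. Pde4d, a cAMP phosphodiesterase, held 19 of 47 and Gse1 19 of 37. Foxp1, a forkhead repressor expressed in airway and alveolar epithelium, held 17 of 37, and Itpr1, the inositol trisphosphate receptor of the endoplasmic reticulum, 16 of 32. Nfia held 15 of 29, Maml3, a coactivator of Notch, 15 of 34, and Ptprm, a receptor tyrosine phosphatase at cell contacts, 15 of 36. Macrod2 also held 15, of 35, and was left out of the 10 by its smaller total width. The 10 genes were 338 to 1302 kb long. Their median widths per library ranged from 316 bp in Ptprm in the female KrasLA1 tumour to 837 bp in Nfia in the male KrasLA1 tumour. Within Nfia the medians were 503, 837, 601 and 594 bp and within Pde4d 698, 746, 687 and 622 bp in KrasLA1 replicates 1 and 2 and Dicer1S2D replicates 1 and 2, so the spread between the 4 mice differed from gene to gene.

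The densest genes were shorter, from 39.0 to 104 kb. Among genes with at least 5 intragenic shared regions, C77080 had 14.3 per 100 kb and Gramd2, a marker of alveolar type 1 cells, 12.8. Hk2, the hexokinase that starts glycolysis in many tumours, had 12.1 per 100 kb, and Dram1, a lysosomal protein of autophagy, 12.03. Rabgef1, an exchange factor for RAB5, and Abhd17c, a depalmitoylase, had 11.8 each, and Irak2, a kinase of interleukin 1 and Toll-like receptor signalling, 10.6. Slc43a2, an amino acid transporter, had 10.5, Hdac7, a class IIa histone deacetylase, 9.64, and Iqgap1, a scaffold of actin and MAPK signalling, 9.62. All autosomal protein-coding genes together had 0.891 per 100 kb. In Irak2 the region at chr6:113686621-113687347 covered 720, 717, 724 and 712 bp in KrasLA1 replicates 1 and 2 and Dicer1S2D replicates 1 and 2, almost the same in each mouse. In Hk2 the region at chr6:82771144-82772127 covered 368, 984, 361 and 338 bp, so that 3 mice agreed and the male KrasLA1 tumour was far wider.

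At the other end stood very long genes with no region called in all 4 libraries. The 10 longest were Ptprd, Cntnap2, Lsamp, Csmd1, Nrxn3, Pcdh15, Rbfox1, Dpp10, Gpc5 and Lrrc4c, from 1314 to 2271 kb, most of them known for roles at synapses or in neuronal adhesion. Cntnap2 held 9 regions called in 1 to 3 libraries, and Dpp10 held none in any library. In the list of synaptic and other long neuronal genes 5 of 16 genes held a region (median length 1467 kb), 14 regions in all at 0.0594 per 100 kb. Of these Dlgap1, a postsynaptic scaffold, held 7 and Magi2, a junction scaffold, 2.

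Gene lists chosen for lung tumours were then counted. Over 23 lists, 194 of 357 distinct genes longer than the windows (54.3%) held an intragenic shared region, against 25.4% of all such genes. Many listed genes are long, and length moves with the share of genes that hold a region, so the median gene length is given beside each list. The lists were also chosen with earlier results of these data known, so their shares and the share of all genes do not make an independent comparison. The counts come from the rule that chose the regions and carry no test.

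Some alveolar identity genes held such regions. Among alveolar type 1 genes 8 of 13 did (median length 28.1 kb over the list), with 24 regions at 2.65 per 100 kb. Pdpn, the type 1 cell surface protein podoplanin, held 4 of 4, at 12.4 per 100 kb. At chr4:143278254-143278878 in Pdpn the widths were 464, 544, 471 and 415 bp in KrasLA1 replicates 1 and 2 and Dicer1S2D replicates 1 and 2. Clic5, a chloride channel family member of type 1 cells, held 5 of 14, and the widest, at chr17:44239019-44240471, covered 1099, 1402, 1386 and 1421 bp. Limch1, an actomyosin regulator, held 4 of 9. Hopx, a homeodomain-only cofactor, held 1 region with an internal start of Hopx itself, at chr5:77094650-77095376, with 524, 727, 570 and 532 bp. Ager and Aqp5, defining type 1 genes, are shorter than the windows and could hold none. Other genes of the list are longer than the windows and also held no intragenic shared region. Of these, Cav1 and Akap5 held no region in their bodies in any library. Igfbp2, Vegfa and Gprc5a held only regions called in fewer than 4 libraries.

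Among alveolar type 2 genes 6 of 14 held a region (median length 16.8 kb, 14 regions, 1.83 per 100 kb). Abca3, the lipid transporter of surfactant storage organelles, held 3 of 5. Its region at chr17:24359247-24360349 covered 1003, 933, 1075 and 727 bp in KrasLA1 replicates 1 and 2 and Dicer1S2D replicates 1 and 2, and that at chr17:24365240-24366366 covered 704, 1080, 784 and 911 bp. Acoxl held 4 of 11. Etv5, an ETS factor that maintains type 2 cells and is induced by MAPK signalling, held 2 of 5, with 1364, 1405, 1324 and 944 bp at chr16:22428210-22429622. Lpcat1, a surfactant lipid enzyme, held 9 regions, none of them called in all 4 libraries. Sftpc and Cebpa are shorter than the windows, and Nkx2-1, Sftpa1, Sftpd, Muc1 and Fasn held no region in their bodies in any library. Nkx2-1 (4.97 kb), Sftpa1 (4.59 kb) and Muc1 (4.33 kb) leave little room for a region beyond the windows.

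Gastric and gut genes were examined because gastric cell fate is named in the series title. A region was held by 5 of 17 (median length 21.9 kb, 10 regions, 1.44 per 100 kb). Gata4, a zinc finger factor of foregut and stomach, held 3 of 6. In Gata4 the widths in KrasLA1 replicates 1 and 2 and Dicer1S2D replicates 1 and 2 were 764, 989, 907 and 767 bp at chr14:63222267-63223296 and 277, 326, 569 and 202 bp at chr14:63255755-63256323. Vil1, the microvillus protein villin, held 1 of 2 with 784, 715, 712 and 270 bp. Hnf4a held 3 regions called in fewer than 4 libraries and Nr5a2 held 5, while Gkn1, Gkn2, Muc5ac, Muc6, Pgc, Atp4b and Cdx2 held no region in their bodies in any library. Gkn1 (5.26 kb), Gkn2 (6.13 kb) and Cdx2 (6.35 kb) are short and leave little room for a region beyond the windows. Further genes of the list, named after their values were seen, were Atp4a, the catalytic subunit of the gastric proton pump, with 664, 489, 615 and 324 bp at chr7:30717092-30717763, and Spdef, an ETS factor of secretory cells, with 421, 373, 507 and 290 bp at chr17:27716832-27717338.

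Transcription factors of lung and endoderm held regions in 12 of 22 genes (median length 33.1 kb, 67 regions, 2.15 per 100 kb), with Foxp1, Nfia and Runx1 (10 of 20) holding the most. Airway genes held 3 in 3 of 10 genes (median length 23.6 kb, 0.269 per 100 kb): 1 of 5 in Trp63, the basal cell factor p63, 1 of 3 in Dnah5, an axonemal dynein, and 1 of 2 in Cftr, the chloride channel. Genes of other cell types of a tumour also held regions. The endothelial list had 4 of 11 genes and 9 regions (61.1 kb), including 4 of 6 in Tek, the angiopoietin receptor, 2 of 7 in Vwf and 2 of 3 in Pecam1. The myeloid list had 4 of 10 genes and 5 regions (30.5 kb), with 2 of 5 in Spi1, the factor PU.1, 1 of 2 in Itgam and 1 of 1 in Csf2rb. The fibroblast and smooth muscle list had 2 of 10 genes and 3 regions (38.2 kb), 2 of 2 in Lmod1 and 1 of 1 in Pdgfra, and the lymphocyte list 1 of 10 genes (16.5 kb), Bcl11b with 1 of 5. In Tek the region at chr4:94752276-94752951 covered 543, 518, 624 and 508 bp, and in Spi1 the region at chr2:91097962-91098478 covered 393, 500, 488 and 368 bp in KrasLA1 replicates 1 and 2 and Dicer1S2D replicates 1 and 2. Per 100 kb the endothelial list had 0.900, the myeloid 0.908, the fibroblast and smooth muscle 0.786 and the lymphocyte 0.202, against 0.891 for all genes. Cdh5, Kdr, Tie1, Nos3, Adgre1, Marco, Itgax, Col1a1, Col1a2, Col3a1 and Dcn held no region in their bodies in any library. Regions in vessel and myeloid marker genes were thus among those shared by the 4 tumours, at densities near that of all genes. Genes of 20 to 50 and 50 to 100 kb, the classes of these lists' median lengths, had more, at 1.17 per 100 kb. Which cells carried the regions in marker genes was not tested.

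**Figure D4:**
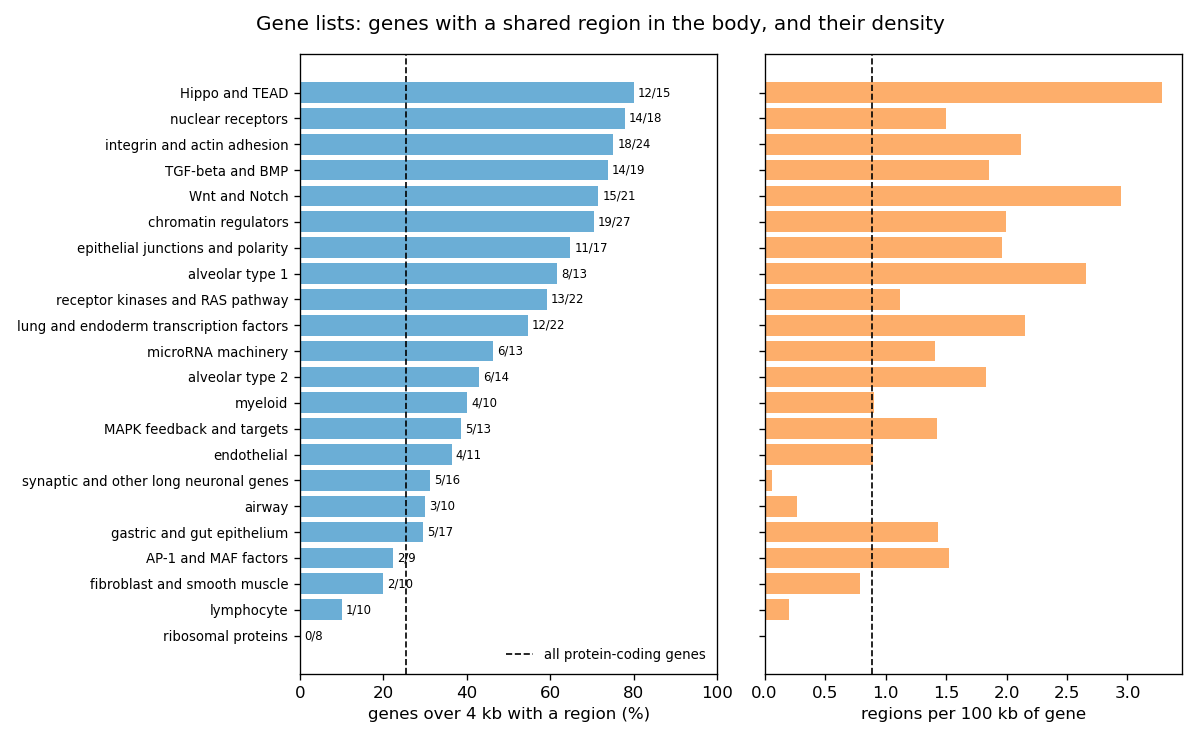
Gene lists (1 of the 23 is not shown) by the percent of their genes over 4 kb that hold an intragenic shared region (left, with counts) and by the number of such regions per 100 kb of gene (right). Dashed lines mark all autosomal protein-coding genes, 25.4% and 0.891 per 100 kb. Hippo and Wnt and Notch genes have the highest densities, 3.29 and 2.95 per 100 kb, and the synaptic list the lowest of the lists with a region, 0.0594.

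In the Hippo list 12 of 15 genes did (median length 73.7 kb, 42 regions, 3.29 per 100 kb), with 8 each in Wwc1, an upstream activator also called KIBRA, in Vgll4, which competes with YAP for TEAD, and in Tead1 itself. In the Wnt and Notch list 15 of 21 did (83.1 kb, 69 regions, 2.95 per 100 kb), led by Maml3, by Tcf7l1, a repressor of Wnt targets (11 of 19), and by Maml2 (10 of 16). In the TGF-beta and BMP list 14 of 19 did (86.9 kb, 33 regions, 1.85 per 100 kb), with 4 each in the inhibitory Smad6, the coreceptor Tgfbr3 and the matrix protein Ltbp2. In Tgfbr3 the region at chr5:107166600-107168027 covered 1328, 1398, 1319 and 1378 bp, and in Smad6 the region at chr9:63957914-63959379 covered 172, 1466, 307 and 291 bp, in KrasLA1 replicates 1 and 2 and Dicer1S2D replicates 1 and 2. The first was alike in the 4 mice, and the second was several times wider in the male KrasLA1 tumour than in any other. The 172 bp of Smad6 in KrasLA1 replicate 1 was near 167 bp, the smallest width of any intragenic shared region in that library.

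In the receptor kinase and RAS list 13 of 22 genes held a region (92.4 kb, 36 regions, 1.12 per 100 kb), with 8 of 18 in Met, the receptor of hepatocyte growth factor, 8 of 12 in Igf1r and 4 of 14 in Fgfr2. Erbb3, the receptor of neuregulins, held 1 at chr10:128583566-128584758 with 1005, 1060, 1171 and 1066 bp in KrasLA1 replicates 1 and 2 and Dicer1S2D replicates 1 and 2. In the list of MAPK feedback genes 5 of 13 did (13.9 kb, 8 regions, 1.42 per 100 kb), with 3 of 12 in Spred2, an inhibitor of RAF activation. Dusp4, a MAPK phosphatase, held 1 at chr8:34814631-34816373 with 590, 1539, 1098 and 987 bp. AP-1 and MAF factor genes are mostly short, and 2 of 9 held a region (9.04 kb, 1.52 per 100 kb), Batf and Mafk with 1 each.

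Adhesion and junction genes also held many. For integrin and actin adhesion the count was 18 of 24 (66.6 kb, 53 regions, 2.12 per 100 kb), led by Macf1 (8 of 19), Tln2 (7 of 23) and Itgb6 (5 of 12), the epithelial integrin that activates TGF-beta. For epithelial junctions and polarity it was 11 of 17 (57.0 kb, 51 regions, 1.96 per 100 kb), led by Magi1 (14 of 32), Pard3 (11 of 24) and Tjp1 (7 of 19). Nuclear receptors held 51 regions in 14 of 18 genes (70.3 kb, 1.5 per 100 kb), led by Thrb (10 of 26), Rarb (7 of 24) and Pparg (6 of 12). Chromatin regulators held 64 in 19 of 27 genes (88.1 kb, 2.0 per 100 kb), led by Rere (11 of 26), Arid1b (11 of 31) and Dnmt3a (6 of 12). Ribosomal protein genes (3.47 kb), of which 8 are longer than the windows, held none.

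The Dicer1 gene itself had 4 regions in its body, of which 1 was called in all 4 libraries, at chr12:104722109-104722725, with 456, 585, 617 and 252 bp in KrasLA1 replicates 1 and 2 and Dicer1S2D replicates 1 and 2. The groups overlapped there, since the Dicer1S2D tumours were the widest and the narrowest. The count of 1 fell to 0 with at least 50% of the region covered in each library and with the widest 75% of each library's peaks, and was 2 without KrasLA1 replicate 1. In the microRNA machinery list 6 of 13 genes held 15 regions (64.2 kb, 1.41 per 100 kb). Most were in genes of the GW182 family, which silence targets together with Argonaute proteins: 6 of 9 in Tnrc6a, 4 of 11 in Tnrc6b and 1 of 2 in Tnrc6c. Ago4 held 2 of 4 and Ago2 1 of 5, while Drosha, Ago1, Xpo5, Tarbp2 and Prkra held no region in their bodies in any library.

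Some microRNA hairpins lay within intragenic shared regions. Of 458 RefSeq hairpins inside gene bodies 25 overlapped any region and 12 (2.62%) overlapped an intragenic shared region, each in a region of its own, by at least 1 bp, where the regions cover 0.680% of the gene body bases. Their 20 mature sequences had 20 distinct seeds (bases 2 to 8), so no seed was shared. The mature sequences of 4 hairpins in genes described above or of epithelial polarity are shown, with the seed in capitals.
mmu-miR-7687-5p, in Gse1: aGGCGGGGaaccugaggcgcaggcu
mmu-miR-6917-3p, in Erbb3: gUCACUUCucuucccaccacag
mmu-miR-3105-5p, in Shank2: aGAGCAAGcccguaagcagcgu
mmu-miR-7008-5p, in Prkci: uGUGGGAGaugccaggagccguac
The region around Mir7687, chr8:120538101-120539479, covered 733, 1379, 560 and 620 bp in KrasLA1 replicates 1 and 2 and Dicer1S2D replicates 1 and 2, with both KrasLA1 tumours wider. Such a separation in uncentred width was seen in 22.0% of the intragenic shared regions and 27.2% of all shared regions. No region had a limma adjusted p under 0.05. The region around Mir3105, chr7:144009065-144009832, in the gene of a scaffold of cell contacts and synapses, covered 689, 767, 718 and 655 bp. The region around Mir7008, chr3:31038503-31039089, in the gene of an atypical protein kinase C of cell polarity, covered 454, 560, 571 and 447 bp, and Mir6917 lay in the Erbb3 region given above. Open chromatin at a hairpin does not show that the microRNA was made, and RNA was not measured here.

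The genotypes were compared by the width of the intragenic shared regions, a measure that the rule did not use beyond a peak in each library. The median width was 548 ± 93.3 bp (SD, n = 2) in the KrasLA1 group and 488.5 ± 47.4 bp (SD, n = 2) in the Dicer1S2D group, a difference of -59.5 bp that was smaller than the spread between replicates (exact permutation test, two-sided, p = 0.667). With 2 libraries against 2 no p below 0.333 can be reached. The difference was 40 bp between the females and -159 bp between the males, and it was 1 bp without KrasLA1 replicate 2 and -131 bp without KrasLA1 replicate 1, -93 bp without Dicer1S2D replicate 1 and -21 bp without Dicer1S2D replicate 2. Intragenic shared regions held 20.7% ± 1.33 of the peaks of the KrasLA1 libraries and 22.1% ± 5.49 of those of the Dicer1S2D libraries (SD, n = 2 each; difference 1.39 percentage points; exact permutation p = 1). By library the share was 21.6%, 19.7%, 18.2% and 25.96%, highest in the library with the fewest peaks and lowest in that with the most, and the difference was -2.98 points without Dicer1S2D replicate 2, 5.45 without Dicer1S2D replicate 1, 2.61 without KrasLA1 replicate 1 and 0.458 without KrasLA1 replicate 2. The total width was 5.41 ± 0.831 Mb and 4.83 ± 0.343 Mb (SD, n = 2 each; exact permutation p = 0.667).

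The distance between gene ends and gene bodies did not differ between genotypes either beyond the spread. Shared regions at gene ends exceeded the intragenic shared regions in median width by 295 ± 41.0 bp in the KrasLA1 group and by 266 ± 26.9 bp in the Dicer1S2D group (SD, n = 2 each; difference -29 bp; exact permutation test, two-sided, p = 0.667). Without KrasLA1 replicate 1 the difference was 4.5 bp, without KrasLA1 replicate 2 it was -54 bp, and without Dicer1S2D replicates 1 and 2 it was -11.5 and -52.5 bp.

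Region by region, no width differed between genotypes after adjustment. In a limma fit over all 26402 shared regions, on log2 width centred on each library's median, 0 regions (0%) had an adjusted p under 0.05, and the lowest adjusted p was 0.999. At an unadjusted p under 0.05 stood 298 intragenic shared regions (3.39%) against 770 of all shared regions (2.92%), both below 5%. The libraries of the genotypes did not overlap and the Dicer1S2D pair was the wider in 1463 intragenic shared regions (16.6%) against 16.9% of all shared regions, and the narrower in 906 (10.3%) against 10.8%. The shares inside genes were thus close to those of all shared regions in both directions. Without centring the Dicer1S2D pair was the wider in 353 intragenic shared regions (4.01%) against 3.66% of all shared regions, and the narrower in 1938 (22.0%) against 27.2%, so the direction of that split depends on the scaling. The log2 width difference, Dicer1S2D minus KrasLA1, had a median of 0.04 over the intragenic shared regions (quartiles -0.16 and 0.20) with centring and of -0.12 without, and the second value is that of all shared regions too. Across the intragenic shared regions the log2 width of 2 libraries had Pearson correlations from 0.644 (the KrasLA1 pair) to 0.765 (the males of both genotypes), the Dicer1S2D pair had 0.713, and pairs across genotypes ran from 0.690 to 0.765.

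The regions with the lowest unadjusted p in each direction were picked by their width and serve as examples, with no call. Among those narrower in the Dicer1S2D group, Adam33, a membrane metalloprotease, had 754 and 730 bp in the KrasLA1 tumours and 182 and 193 bp in the Dicer1S2D tumours at chr2:131055691-131056454 (log2 difference -1.82, SE 0.23, limma adjusted p = 0.999). No base of the Adam33 region, or of the Osbpl3 region at chr6:50441007-50441764, was under a peak of all 4 libraries. Srebf2, the transcription factor of sterol synthesis, had 1009 and 1088 bp against 367 and 327 bp at chr15:82166325-82167412, and Cpt1a, which carries fatty acids into mitochondrial oxidation, 557 and 840 bp against 179 and 223 bp at chr19:3325130-3325969. Igf1r, the receptor of insulin-like growth factor 1, had 418 and 452 bp against 157 and 173 bp in 1 of its 8 regions, at chr7:68106934-68107390, and Zfp608, a zinc finger gene, 513 and 705 bp against 256 and 191 bp. In the other direction stood Nme7, of the centrosome and cilium, with 287 and 231 bp against 640 bp in 1 Dicer1S2D tumour and 1 bp more in the other, at chr1:164366346-164367022 (log2 difference 1.48, SE 0.26, limma adjusted p = 0.999). Srgap1, a GTPase-activating protein of Slit and Robo signalling, had 378 and 436 bp against 835 and 741 bp at chr10:122030013-122030847. Dscam, an adhesion molecule, had 188 and 198 bp against 395 and 342 bp, Fermt1, the integrin activator kindlin-1, 312 and 258 bp against 676 and 588 bp, and Osbpl3, an oxysterol-binding protein relative, 190 and 311 bp against 718 and 464 bp. In each of the 10 both libraries of a genotype lay apart from both of the other, as the choice requires, and in each the limma adjusted p was 0.999. The smallest widths of any intragenic shared region were 167 and 184 bp in KrasLA1 replicates 1 and 2. They were 155 and 171 bp in Dicer1S2D replicates 1 and 2. Widths such as 157 and 173 bp in Igf1r, 182 and 193 bp in Adam33 and 188 and 198 bp in Dscam lay near these.

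**Figure D5:**
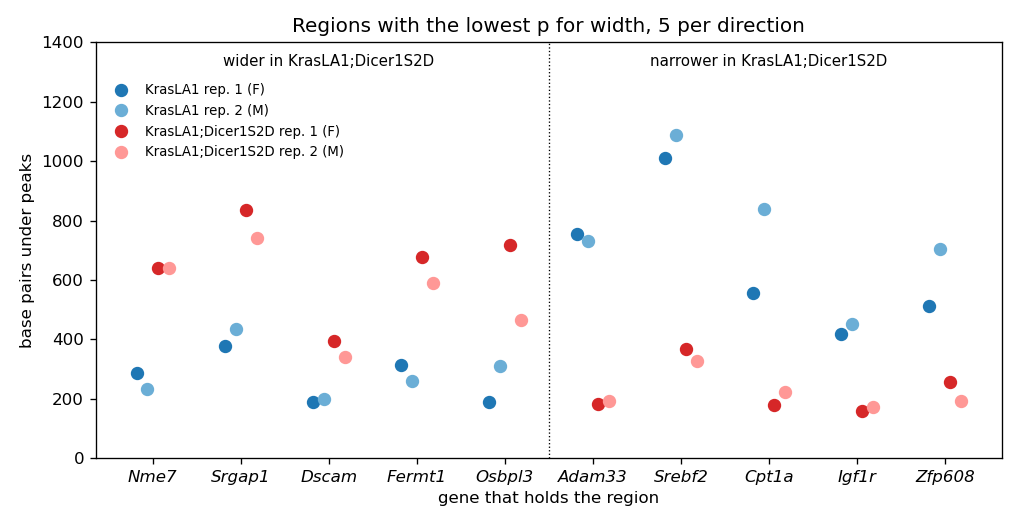
Base pairs under peaks in the 10 intragenic shared regions with the lowest unadjusted limma p for width, 5 per direction, named by the gene that holds them (F female, M male). Points are the 4 libraries. The regions were chosen for this separation, and the limma adjusted p is 0.999 for each.

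By gene list, the width of the intragenic shared regions showed no list whose regions passed the test in either direction: 0 of the regions in any list had an adjusted limma p under 0.05. Medians of the log2 width difference (Dicer1S2D minus KrasLA1, centred) were 0.07 over the 24 regions of alveolar type 1 genes, 0.03 over the 14 of alveolar type 2 genes and 0.10 over the 10 of gastric and gut genes, beside 0.04 over all shared regions. They were 0.11 over the 53 of integrin and actin adhesion genes, -0.04 over the 36 of receptor kinase and RAS genes and -0.00168 over the 42 of Hippo genes. Without centring these medians move with the shift of all shared regions, whose median is then -0.12.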

How the data were processed

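ATAC-seq peaks of 4 lung tumours were used, 2 per genotype as the labels assign them. Peaks are in mm10, and BWA 0.7.12, MACS3 3.0.0 and deepTools 3.5.1 are listed in the submitters' processing notes, without their settings. Neither a threshold for peaks nor a read depth is given in the sources used here. The authors deposited 5 tracks of intervals, 1 of peaks per library and 1 of merged regions, with no count, score or height. The union of the peaks equalled the 61972 deposited merged regions, and 0 columns belonged to other samples. Coordinates are printed counted from 1.

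Genes came from a RefSeq table for GRCm38.p6, in which 20661 autosomal protein-coding genes were placed. The table gives neither exons nor introns, so neither is named. Start windows and mature microRNAs came from RefSeq tables, matched by coordinates. All 396 list entries in 23 lists were matched, and some named genes and 1 list are not reported here. A count test was not possible without counts, and a motif search inside the regions was not made without a genome. Start windows, their motifs and the 4 printed microRNAs were chosen after seeing the data. The members and lists were chosen with earlier results of these data known. Named genes were the 10 with the most regions, the 10 densest of those with at least 5, up to 3 per list, and Dicer1. Named regions were the 5 widest, the 5 narrowest, the 5 per direction with the lowest width p whose groups do not overlap, and those nearest the 2 kb limit. Further genes whose regions are named were chosen after their values were seen.

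Width was the base pairs under peaks per region. limma 3.58.1 in R 4.3.3 was fitted to log2 width of all 26402 shared regions, centred on each library's median, with Benjamini-Hochberg adjustment over all of them. Group and paired differences had exact two-sided permutation tests, and shares 95% Wilson intervals. The p-values measure the spread between these 4 mice. Other steps ran in Python 3.11.15 with numpy 2.4.6, pandas 2.3.3, scipy 1.17.1 and matplotlib 3.10.9. The overlap rules and the limma fit were tested on simulated data.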

Additional observations from a re-analysis of the deposited data

Results flagged for a closer look

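Each of 4 measures of the intragenic shared regions moved one way with genotype in the females and the opposite way in the males. They are listed because their signs differed. The share of these regions with 2 or more peaks moved the same way, by 1.59 points in females and 2.27 in males. Median width outside genes also split (27 bp in females and -131.5 bp in males), and at gene ends it did not (-37 and -140 bp). With 1 mouse per genotype and sex, the difference between the sexes was not tested, and sex cannot be told apart from replicate number. The median width was 40 bp higher in the Dicer1S2D female than in the KrasLA1 female and 159 bp lower in the Dicer1S2D male than in the KrasLA1 male, so that the genotype difference in males minus that in females was -199 bp. For the share of a library's peaks that lie in these regions the same value was 9.65 percentage points (-3.44 in females and 6.21 in males). For the total width it was -1.66 Mb (0.255 and -1.41 Mb), and for the share of all base pairs under peaks 3.57 percentage points (-0.913 and 2.66). In the number of peaks per library the sexes also moved apart, from 41621 to 50282 in females and from 44654 to 34767 in males, and its part in these differences was not tested.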

How the results depend on the processing

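The number of intragenic shared regions fell to 5823 with the widest 75% of each library's peaks, and was 7642 and 9466 with windows of 5 and 1 kb at gene ends, 5871 with at least 50% of the region covered in each library, 6819 with equal numbers of widest peaks, and 9096 to 10346 without 1 library. The width of shared regions outside genes minus that of intragenic ones (0.875 bp) changed sign with a 1 kb window (-3.75 bp), 50% cover (-5.5 bp), the widest 75% (-8 bp) and equal numbers (-4.5 bp), and ran from -1.67 to 4.67 bp without 1 library, being below 0 without KrasLA1 replicate 1 and without Dicer1S2D replicate 1 (-0.333 bp). Without 1 library the genotype difference in median width ran from -131 to 1 bp, that in the share of peaks from -2.98 to 5.45 points, and that in gene ends minus intragenic regions from -54 to 4.5 bp. The cause was not tested. The median log2 width difference was -0.12 without centring. Gene ends, and regions with an internal start, remained the wider under each of the 12 alternatives run, by 215.25 to 301 bp and by 218.5 to 303.667 bp. Of these alternatives, keeping only regions in exactly 1 gene cannot change the value for gene ends. No alternative gave a region with an adjusted p under 0.05 for width. With a replicate block 0 regions were called (lowest p adjusted in limma 0.505, 485 intragenic regions, 5.52%, at an unadjusted p under 0.05 against 4.51% of all shared regions). Deviations of the libraries that share a number had a correlation of 0.149 over the intragenic shared regions, and with 2 pairs the numbers do not pair the mice. Of 948 values for 79 named genes 843 were within 1.5 times the reported one, with 34 of the 79 genes outside it at 50% cover and 37 with the widest 75%, and of 276 list values 257 were. Adding X and Y, or taking the widest peak per region, cannot change these gene and list values. Peak positions without depth cannot tell a narrower region from one less deeply sequenced.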
